A study of Mus musculus with 12 samples.

Results

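Loss of the mitochondrial citrate carrier was examined in the hearts of mouse embryos by comparing 4 homozygous knockout hearts (Slc25a1 KO) with 4 wild-type hearts (Slc25a1 WT). The comparison was chosen by the genotype that the labels give to each heart and uses 8 of the 12 hearts measured. The 4 heterozygous (HET) hearts carry a single intact copy and were left out. All hearts came at E17.5, late in gestation, from timed matings of mice heterozygous for the knockout, so KO and WT embryos had the same kind of parents. The knockout is not described as limited to the heart, and total RNA of the heart was measured, so the values mix all of its cell types. The RNA was extracted with an RNeasy Micro kit and read with NanoString nCounter, an assay in which barcoded probes on transcripts are counted singly without amplification. The labels do not give litter, sex, assay batch or how many hearts went into a sample, and p-values therefore measure the spread between these samples.

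The citrate carrier, the product of Slc25a1, sits in the inner mitochondrial membrane and moves citrate out of the matrix in exchange for malate. In the cytosol, citrate is split into acetyl-CoA and oxaloacetate, and the acetyl-CoA feeds fatty acid and sterol synthesis and the acetylation of proteins. The heart before birth draws much of its energy from glucose and lactate, while its mitochondria mature toward the oxidation of fatty acids that takes over after birth.

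The panel held many metabolic genes. Tests were run on the 696 genes whose mean probe count over the 8 hearts was 20 or more, and 72 genes fell below that. Total probe counts ran from 1285512 to 1484207 in KO hearts and from 1389025 to 1565516 in WT hearts. Values are log2 ratios centred on the median of all probes in the same heart, so a centred value of 0 is the level of the median probe, and a log2 difference is the KO mean minus the WT mean. The first 2 principal components of the 8 hearts held 42.3% and 20.6% of the variance. On the first, KO replicate 1 (-7.97) and WT replicate 2 (-3.75) lay at the same end, and the other hearts lay between -1.14 and 6.06. Hearts of 1 genotype varied beyond the error of counting. The chi-square over its degrees of freedom was 3.81 to 15.5 between KO hearts and 2.81 to 29.3 between WT hearts, where the 3 pairs with WT replicate 2 were the highest. Where a result rests on WT replicate 2 or KO replicate 1, its value without that heart is given. The heart's own muscle markers could be checked only with the muscle-type glycolytic enzymes Eno3 and Pgam2, because the other markers fixed for these cells, among them the contractile genes, were not on the panel. Both were abundant, with mean probe counts of 6579 and 2956, against a median of 473 over all tested genes. Eno3 had values of 3.95, 4.14, 4.04 and 4.15 in KO hearts, against 4.49, 4.11, 4.50 and 4.61 in WT hearts, and differed by -0.36 (-0.14 after quantile normalization). Only WT replicate 2 lay among the KO hearts, neither marker was called, and the summed level of both was 22.6 to 26.4 in KO hearts and 25.8 to 34.9 in WT hearts. Their part in the results on other abundant genes was not tested.

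The level of Slc25a1 matched the labelled genotypes. Its ratio to Tbp, the general transcription factor by which the authors divided every value, was 0.111, 0.0819, 0.117 and 0.0839 in KO hearts, against 0.605, 0.611, 0.614 and 0.622 in WT hearts. The groups lay far apart, and the KO signal rested on 26 to 44 probe counts per heart, against 167 to 218 in WT hearts. On the centred scale Slc25a1 fell by 2.59 (SE 0.179, limma adjusted p = 0.00035), which is 16.6% of the WT level, with all 4 KO hearts below all 4 WT hearts. The two-sided exact permutation p was 0.0286, the smallest that 4 hearts against 4 allow. How much of the remaining KO signal is background was not tested, and where the probe lies relative to the disrupted part is a detail not given in the sources used here.

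Beside Slc25a1, a single gene passed the test in KO hearts: Phgdh, the first enzyme of serine synthesis, which rose. Together these were 2 of 696 genes, a share of 0.287%, with limma and Benjamini-Hochberg adjustment over all genes tested. Without adjustment 188 genes (27%) had a limma p under 0.05, of which 36 were higher (5.17%) and 152 lower (21.8%). The KO mean lay below the WT mean in 64.2% of tested genes and above it in 35.8%. In total RNA of a heart, fewer cells of a type and less RNA per cell cannot be told apart. Differences were small outside the disrupted gene. A difference of 0.5 or more on the log2 scale was found in 15 genes above WT and 4 below, Slc25a1 included, and only Slc25a1 passed a difference of 1. All 4 KO hearts lay on 1 side of all 4 WT hearts in 95 genes (13.6%), with 17 above (2.44%) and 78 below (11.2%). The split between directions depended on the scaling: quantile normalization gave 25 above and 29 below, and centring on commonly used reference genes gave 43 above and 29 below. The values as deposited gave 5 above and 18 below. The median difference over all tested genes was -0.06 on the centred scale, -0.13 as deposited, 0.02 when centred on reference genes and 0.00 after quantile normalization.

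**Figure D1:**
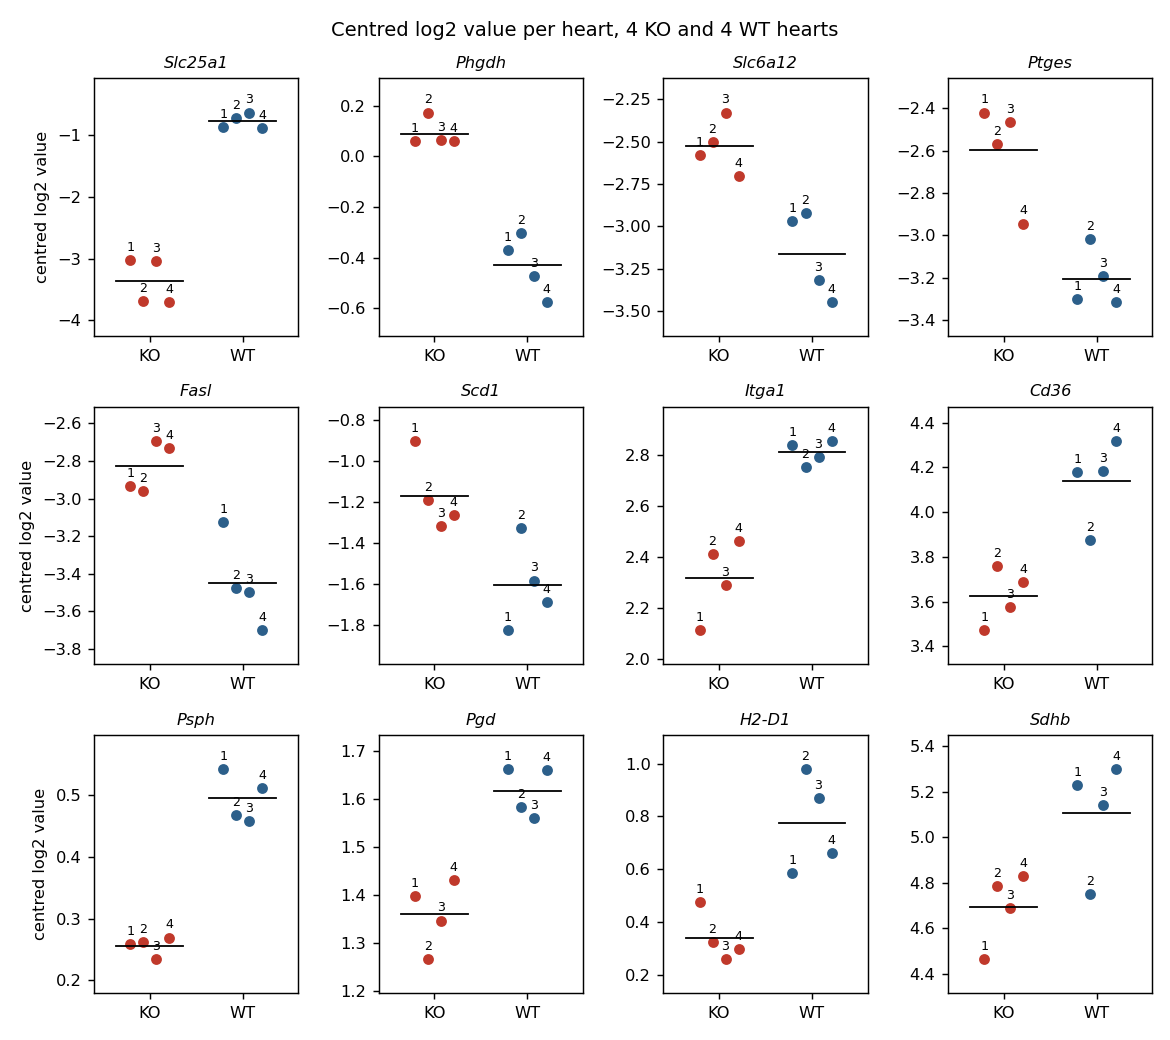
Centred log2 value (vertical axis, 0 is the heart's median probe) of 12 genes in each of the 4 KO hearts (red, left) and 4 WT hearts (blue, right). Numbers are replicates and bars are group means. Phgdh lies between 0.06 and 0.17 in KO hearts, above -0.57 to -0.30 in WT hearts, while Sdhb of WT replicate 2 (4.75) lies among the KO hearts.

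The size and sign of the differences followed how abundant a gene was. Genes with a mean count of 20 to 100 had a median log2 difference of 0.10 (124 of 186 above WT). The median was -0.04 for counts of 100 to 1000 (295 genes), -0.15 for 1000 to 10000 (163 of 184 below WT) and -0.26 for the 31 genes at 10000 or more, all of which were below WT. After quantile normalization, which gives every heart the same distribution of values, the medians of these ranges were 0.02, 0.00, -0.01 and -0.01. Equal distributions bring the medians of such ranges together between groups by construction, so these values cannot show whether the relation is real. Most respiratory chain, tricarboxylic acid (TCA) cycle and glycolysis genes belong to the abundant ranges, and most immune genes to the low ranges. A list's median is therefore given beside its value after quantile normalization. For a list of mostly abundant genes that scaling also removes a fall shared by such genes, so a smaller value there decides nothing about its source. Whether the relation to abundance belongs to the hearts or to the assay was not tested.

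**Figure D2:**
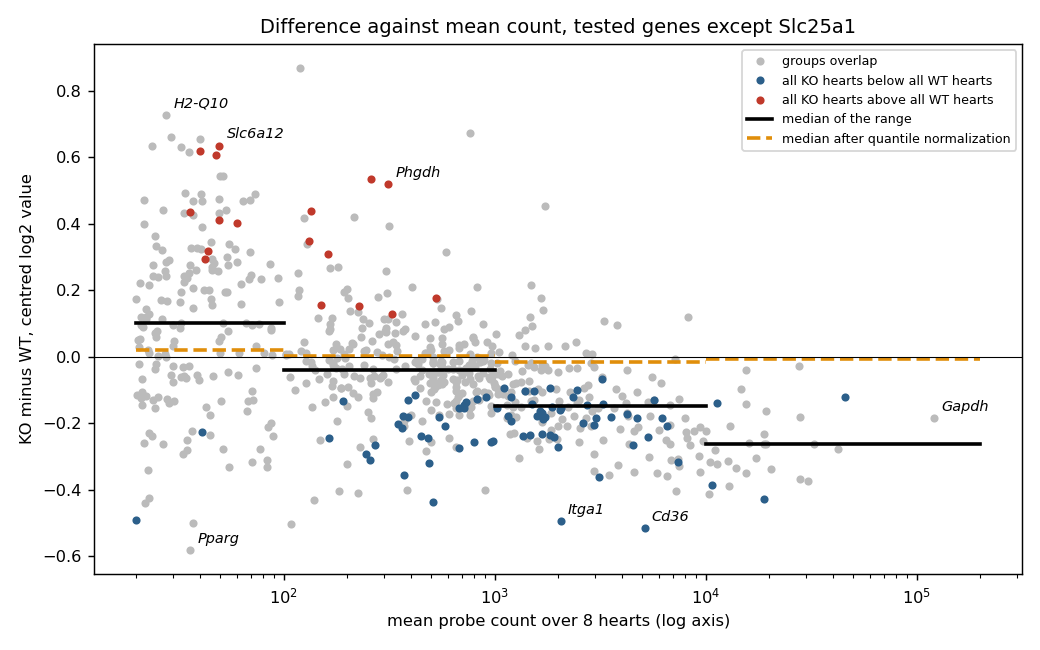
Log2 difference, KO minus WT (vertical axis), against the mean probe count over 8 hearts (horizontal log axis) for tested genes except Slc25a1. Red and blue points are genes whose KO hearts lie all above or all below the WT hearts; black bars are the medians of 4 ranges of counts, from 0.10 at the low end to -0.26 at the high end, and dashed bars the medians after quantile normalization.

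Phgdh turns 3-phosphoglycerate from glycolysis toward serine. Its centred log2 values were 0.06, 0.17, 0.06 and 0.06 in KO hearts, against -0.37, -0.30, -0.47 and -0.57 in WT hearts. The groups did not overlap, and the gap between the lowest KO and the highest WT heart was wider than the range of either group. Phgdh rose by 0.52 (SE 0.07, limma adjusted p = 0.0257), a 1.43-fold level. After quantile normalization the rise was 0.56 (adjusted p = 0.0126). As deposited, without centring, the difference was 0.45 and the call was lost (adjusted p = 0.309). The call was also lost without KO replicate 2, 3 or 4 or WT replicate 1, 3 or 4, with differences of 0.47 to 0.56 over the 8 single omissions and adjusted p up to 0.150.

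The other steps of the serine pathway did not share that direction. Psph, the phosphatase of the last step, had centred log2 values of 0.26, 0.26, 0.23 and 0.27 in KO hearts, against 0.54, 0.47, 0.46 and 0.51 in WT hearts. Its groups did not overlap, and its difference was -0.24 (SE 0.0447, limma adjusted p = 0.112). Psat1, the aminotransferase of the middle step, had a difference of -0.04, with a sign that changed under 6 of 24 alternatives. Of 9 tested genes of serine synthesis and one-carbon metabolism, 4 lay above WT and 5 below. Only Phgdh was called, against 0.287% of all tested genes, and the median was -0.04, against -0.06 over all tested genes. Mat2a, which makes S-adenosylmethionine, had values of 3.87, 3.70, 3.84 and 3.91 in KO hearts, against 4.10, 4.00, 4.08 and 4.11 in WT hearts. It lay lower in every KO heart, with a difference of -0.24 (adjusted p = 0.116) that shrank to -0.04 after quantile normalization. The hydroxymethyltransferases Shmt2 and Shmt1 differed by -0.15 and -0.04, and the thymidylate synthase Tyms by 0.09, all with overlapping groups.

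The 250 bases before the annotated start of 3 of these genes are given to show the promoters of 2 steps of 1 pathway with differences of opposite sign, Phgdh and Psph, beside that of Pycr1, the last enzyme of proline synthesis. They were copied from RefSeq (GRCm38.p6), on the gene's own strand and 5′ to 3′, and all 3 genes lie on the minus strand. Capitals mark a match to TGATGNAAN, the composite element bound by the stress factor ATF4 with C/EBP proteins, searched on both strands.
Phgdh, chr3:98339970-98340219: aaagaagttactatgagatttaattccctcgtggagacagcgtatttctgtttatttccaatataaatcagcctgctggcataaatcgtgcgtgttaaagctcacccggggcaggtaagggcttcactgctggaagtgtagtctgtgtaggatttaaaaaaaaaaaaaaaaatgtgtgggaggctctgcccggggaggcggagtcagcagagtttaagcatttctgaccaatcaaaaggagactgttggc
Psph, chr5:129787254-129787503: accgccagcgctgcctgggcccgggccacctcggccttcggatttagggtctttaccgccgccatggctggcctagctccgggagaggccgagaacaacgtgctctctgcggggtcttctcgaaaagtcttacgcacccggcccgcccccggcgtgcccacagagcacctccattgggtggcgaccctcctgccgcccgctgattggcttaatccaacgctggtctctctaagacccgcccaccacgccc
Pycr1, chr11:120643749-120643998: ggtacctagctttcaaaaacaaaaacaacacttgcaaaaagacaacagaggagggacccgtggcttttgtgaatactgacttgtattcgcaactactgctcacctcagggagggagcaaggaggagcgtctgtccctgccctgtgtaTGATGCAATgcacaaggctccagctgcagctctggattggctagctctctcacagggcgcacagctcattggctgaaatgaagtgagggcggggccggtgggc
The element matched once in the Pycr1 window, beginning 103 bases before the start, and once in the window of Asns, asparagine synthetase, 23 bases before it; Asns, a known ATF4 target, is named for that match. No match was found in the windows of Phgdh, Psph, Psat1, Shmt1, Shmt2, Atf4 or Slc25a1. Of 32851 windows of this length in the RefSeq table, 1129 (3.44%) held a match. A match is a stretch of letters and not a measured binding site. The log2 differences of the genes with a match were 0.39 for Pycr1 (limma adjusted p = 0.222, overlapping groups) and 0.11 for Asns.

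Pycr1 belongs to a list of Atf4 and 7 of its other known targets. No member was called, 7 of 8 lay above WT, and the median was 0.12 (0.15 after quantile normalization), against -0.06 (0.00) over all tested genes. The list leaves out the serine genes, which have their own list. Of these, Phgdh differed by 0.52, but Psph by -0.24, Shmt2 by -0.15 and Psat1 by -0.04, so the count of 8 does not cover all ATF4 targets. Pycr1 itself had values of 0.31, -0.07, -0.01 and -0.13 in KO hearts, against -0.48, 0.17, -0.43 and -0.74 in WT hearts. Only WT replicate 2 lay among the KO hearts, and without it Pycr1 was called higher (0.58, limma adjusted p = 0.0244). The transcript of Atf4 pointed the other way, at 2.72, 2.68, 2.73 and 2.77 in KO hearts and 2.88, 2.83, 2.89 and 2.78 in WT hearts. Its groups did not overlap by a narrow margin, and its difference of -0.12 (adjusted p = 0.167) turned to 0.02 after quantile normalization.

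Carriers that bring amino acids and related solutes into the cell stood above WT. All 7 tested transporters had a positive difference, with a median of 0.15, and 6 of 7 after quantile normalization (median 0.18), but none was called. Several of them, Slc7a5 and Slc3a2 included, also belong to the list of ATF4 targets, so these lists are not independent. Slc6a12, a carrier of betaine and GABA, had the lowest p among them. Its values were -2.58, -2.50, -2.33 and -2.70 in KO hearts, against -2.97, -2.92, -3.32 and -3.45 in WT hearts, so that the groups did not overlap. The difference was 0.64 (SE 0.137, limma adjusted p = 0.116) on a mean count of 49.5. Slc16a6, a carrier of the monocarboxylate family that is not in this list, differed by 0.31 (adjusted p = 0.124), also without overlap. Slc7a5 and its partner Slc3a2, the carrier of large neutral amino acids, differed by 0.15 and 0.13 with overlapping groups. The mean of the list per heart was -1.58, -1.56, -1.50 and -1.78 in KO hearts and -1.58, -1.93, -1.86 and -1.93 in WT hearts, where WT replicate 1 lay with the KO hearts.

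Genes for the use of exported citrate were mostly below WT, by small amounts. Idh1, the cytosolic isocitrate dehydrogenase, had values of 1.98, 1.71, 1.81 and 1.98 in KO hearts, against 2.18, 2.06, 2.06 and 2.14 in WT hearts. The groups did not overlap, and the difference was -0.24 (SE 0.0741, limma adjusted p = 0.129). The acetyl-CoA carboxylase Acacb differed by -0.25 and fatty acid synthase (Fasn) by -0.17, with overlapping groups. The main lipogenic carboxylase Acaca differed by 0.04, and by -0.03 as deposited. In this list of 5 tested genes the only call was that of Slc25a1, the disrupted gene itself, and no gene for the use of citrate was called. The median, Slc25a1 included, was -0.24 (-0.15 after quantile normalization).

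Scd1, the desaturase that makes monounsaturated fatty acids, stood apart from the other lipid genes. It had values of -0.90, -1.19, -1.32 and -1.26 in KO hearts, against -1.83, -1.33, -1.58 and -1.69 in WT hearts. All KO hearts lay above all WT hearts, but KO replicate 3 and WT replicate 2 nearly touched. The difference was 0.44 (SE 0.128, limma adjusted p = 0.124), and 0.53 without WT replicate 2 (adjusted p = 0.0223). The sterol regulator Srebf2 differed by -0.19 and Srebf1 by 0.08.

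Among 4 tested genes of fatty acid uptake, 2 lay below WT and 2 above, with a median of -0.20 (-0.09 after quantile normalization) and no call. Cd36, the main fatty acid transporter of heart muscle cells and capillaries, had centred log2 values of 3.47, 3.76, 3.58 and 3.69 in KO hearts, against 4.18, 3.87, 4.18 and 4.32 in WT hearts. The groups did not overlap, with a difference of -0.52 (SE 0.106, limma adjusted p = 0.112) and a level in KO hearts 0.7 times that in WT hearts. It was called lower without WT replicate 2 (-0.60, adjusted p = 0.0134), and also after quantile normalization without that heart (-0.33). Pparg, a nuclear receptor that drives Cd36 in other tissues, had values of -3.13, -3.79, -3.44 and -4.01 in KO hearts, against -2.90, -3.57, -2.70 and -2.88 in WT hearts. WT replicate 2 lay among the KO hearts. The difference was -0.58 (adjusted p = 0.167) on a mean count of 36.1, and -0.77 without that heart (adjusted p = 0.0413). The fatty acid binding protein Fabp5 differed by 0.12, or 0.37 after quantile normalization, without a call at either. After quantile normalization without WT replicate 2, Fabp5 was called higher (limma adjusted p = 0.0392), while Cd36 and Pparg were called lower. The transporter Slc27a1, named after its values were seen, differed by 0.11 and was not called. Of 8 tested enzymes of beta oxidation none was called and 6 lay below WT, with a median of -0.17 that was 0.00 after quantile normalization. Hadh, Mlycd and Acaa2 had the lowest p of that list, with differences of -0.26, -0.18 and -0.18.

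Enzymes of the TCA cycle, which meets the citrate carrier at the step of citrate synthase, were all below WT, but no member passed the test. The 11 tested enzymes had a median of -0.26, against -0.06 over all tested genes and -0.15 and -0.26 over all genes in the 2 most abundant ranges. After quantile normalization their median was -0.04, with 8 of 11 below WT. Sdhb, the iron-sulphur subunit of succinate dehydrogenase, had values of 4.47, 4.79, 4.69 and 4.83 in KO hearts, against 5.23, 4.75, 5.14 and 5.30 in WT hearts. WT replicate 2 lay among the KO hearts and the other 3 WT hearts above all of them. Sdhb differed by -0.41 (SE 0.133, limma adjusted p = 0.129), Idh3b by -0.33, fumarase (Fh1) by -0.32 and citrate synthase (Cs) by -0.26. In all 4 genes WT replicate 2 was the only WT heart within the KO range. Without it 9 of the 11 enzymes were called lower, where 19.5% of all tested genes were, and Sdhb differed by -0.53. After quantile normalization without that heart none of the 11 was called, where 11 of all tested genes were, and their median was -0.08. The muscle markers Eno3 and Pgam2 had a median of -0.33 (-0.14 after quantile normalization), beside -0.26 (-0.04) for these enzymes.

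For the entry of pyruvate into the mitochondrion, 7 of 8 tested genes lay below WT and none was called. Mpc2, which forms the pyruvate carrier of the inner membrane together with Mpc1, had values of 4.08, 4.21, 4.12 and 4.32 in KO hearts, against 4.67, 4.25, 4.65 and 4.78 in WT hearts. Only WT replicate 2 lay within the KO range. The difference was -0.40 (SE 0.118, limma adjusted p = 0.124), and -0.51 without that heart (adjusted p = 0.0134). The pyruvate dehydrogenase subunit Pdha1 differed by -0.30 (-0.39 without WT replicate 2) and its inhibitory kinase Pdk2 by -0.25. A related kinase, Pdk4, named after its values were seen, differed by 0.21 (adjusted p = 0.222). Without WT replicate 2, 4 of the 8 were called lower, where 19.5% of all tested genes were. After quantile normalization without that heart none of the 8 was, where 0.718% of all tested genes were called lower. The median of the 8 genes was -0.19 (-0.07 after quantile normalization).

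Subunits of the respiratory chain lay below WT almost throughout. All 17 tested genes listed for complex I, the NADH dehydrogenase, lay below WT with a median of -0.26 (-0.05 and 15 of 17 after quantile normalization). They include Ndufa4, which despite its name is assigned to complex IV, and every count of 17 below holds it. All 6 subunits of complexes II and III had a median of -0.33, and 7 of 8 subunits of complex IV, cytochrome c oxidase, lay below WT with a median of -0.30. After quantile normalization these medians were -0.06 and -0.04. No subunit was called, with limma adjusted p between 0.116 and 0.550 in complex I.

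By heart, the mean of the complex I subunits was 3.45, 3.55, 3.57 and 3.61 in KO hearts, against 3.87, 3.57, 3.86 and 3.94 in WT hearts. The KO hearts lay together and below 3 WT hearts, and WT replicate 2 lay within their range. Individual subunits cleared even that heart: Ndufb4, an accessory subunit, had values of 2.87, 3.05, 2.96 and 3.10 in KO hearts, against 3.44, 3.12, 3.37 and 3.49 in WT hearts (difference -0.36, adjusted p = 0.116). The groups did not overlap in 4 of 17 complex I subunits (23.5%), against 11.2% of all tested genes with all KO hearts below. After quantile normalization this held for 1 of 17, against 29 of 696 tested genes, and as deposited for 0 of 17. Uqcrq of complex III differed by -0.43 and Cox4i1 of complex IV by -0.38, both without overlap and with WT replicate 2 the lowest WT heart. Without WT replicate 2, 15 of 17 complex I subunits, 6 of 6 of complexes II and III and 6 of 8 of complex IV were called lower, against 19.5% of all tested genes. After quantile normalization without that heart none of these subunits was called. These subunits vary together from heart to heart and are not independent observations. Those of complex II, succinate dehydrogenase, also belong to the list of TCA cycle enzymes.

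**Figure D3:**
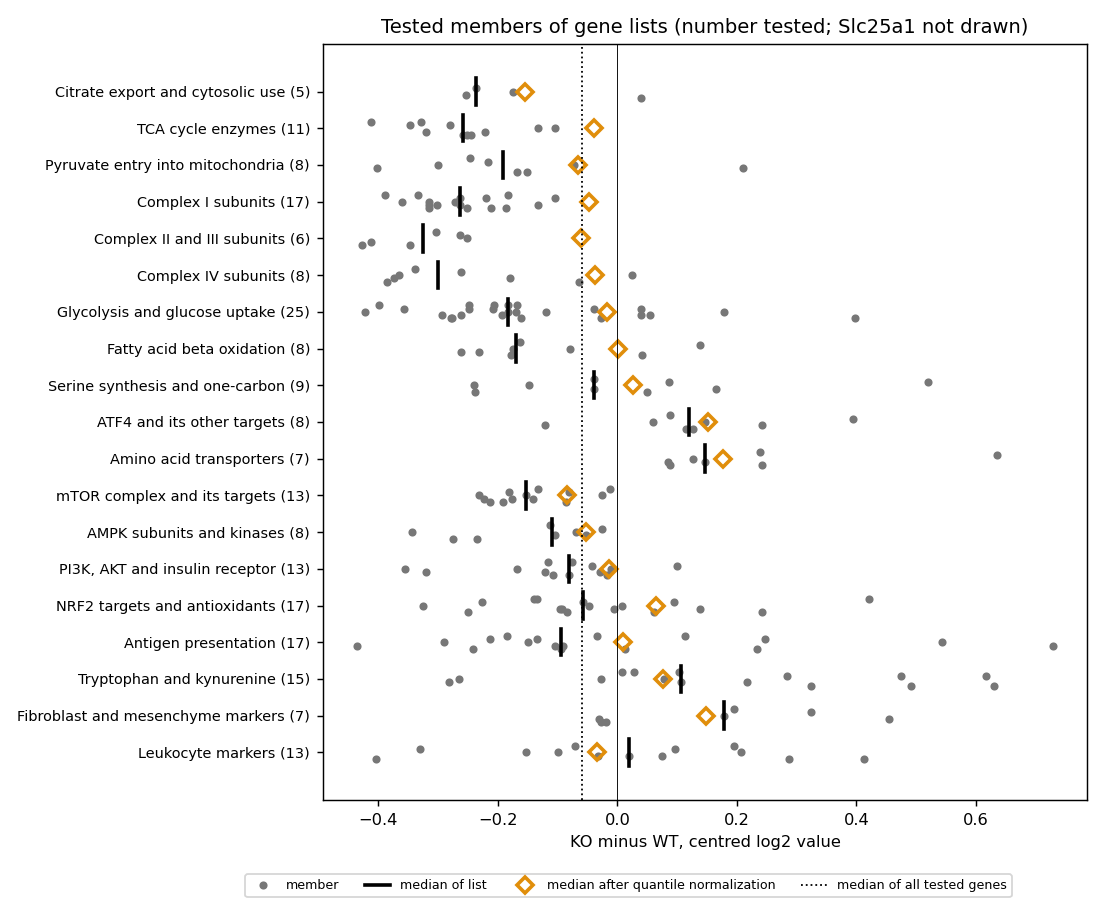
Log2 difference, KO minus WT (horizontal axis), of the tested members of 19 lists of genes (points), with the median of each list (bar) and that median after quantile normalization (diamond). The dotted line is the median of all tested genes, -0.06; the complex I median lies at -0.26 and moves to -0.05 after quantile normalization.

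Glycolysis and glucose uptake genes were mostly below WT. Of 25 tested genes 20 lay below WT with a median of -0.18 (-0.02 after quantile normalization), and none was called. Tigar, which lowers fructose 2,6-bisphosphate and so slows glycolysis, had values of -0.10, 0.09, -0.20 and 0.00 in KO hearts, against 0.45, 0.09, 0.42 and 0.43 in WT hearts. WT replicate 2 lay at the level of KO replicate 2, far from the other WT hearts, and the difference was -0.40 (SE 0.101, limma adjusted p = 0.116), or -0.49 without WT replicate 2 (adjusted p = 0.0134). The muscle phosphofructokinase Pfkm differed by -0.28 and the muscle phosphoglycerate mutase Pgam2 by -0.29. The most abundant probe, Gapdh, which took 8.45% to 9.19% of the counts in KO hearts and 8.22% to 8.78% in WT hearts, differed by -0.18. The glucose transporter Slc2a1, named after its values were seen, had values of 0.59, 0.81, 0.76 and 0.67 in KO hearts, against 0.53, 0.55, 0.50 and 0.53 in WT hearts. It was the 1 member of this list whose KO hearts all lay above the WT hearts, with a difference of 0.18 (adjusted p = 0.129), or 0.23 after quantile normalization.

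**Figure D4:**
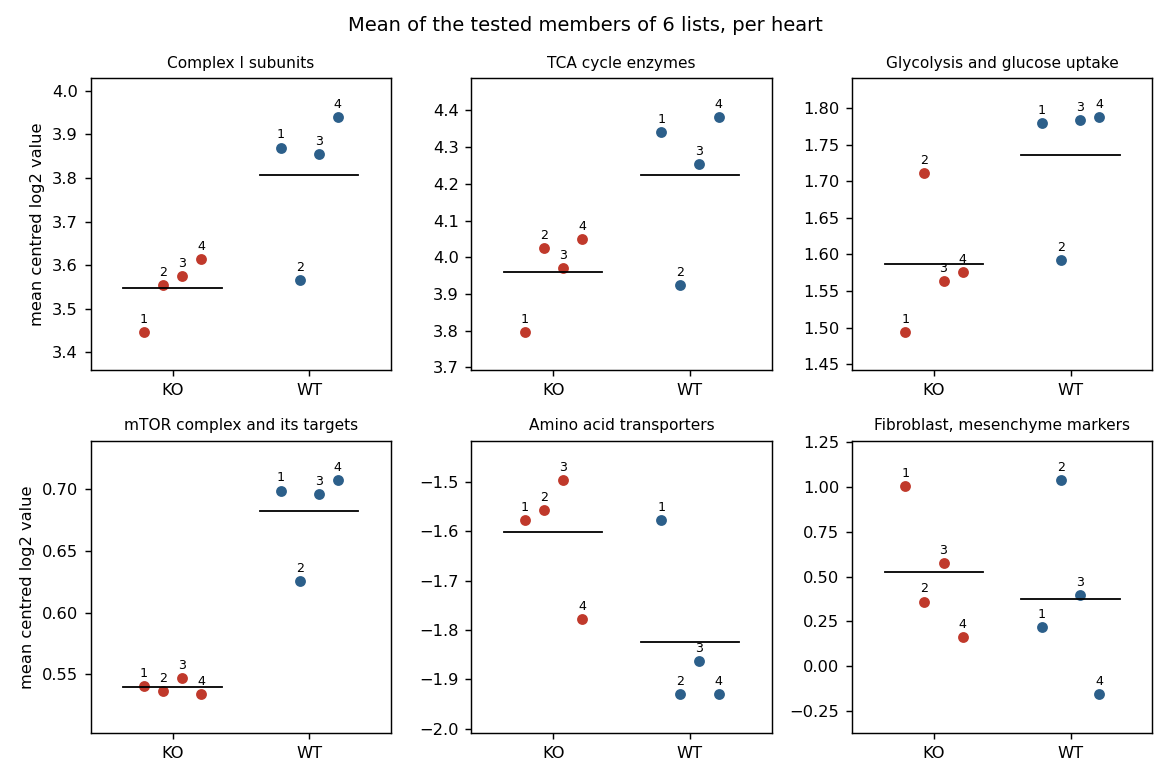
Mean centred log2 value (vertical axis) of the tested members of 6 lists in each of the 4 KO hearts (red, left) and 4 WT hearts (blue, right); numbers are replicates and bars are group means. WT replicate 2 lies within the KO range for complex I (3.57) and at the top of the mesenchyme markers (1.04), and the mTOR list separates the groups, with KO hearts at 0.53 to 0.55 and WT hearts at 0.63 to 0.71.

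Growth signalling genes differed by small amounts, and none was called. The mTOR complexes are kinases that drive growth when nutrients are plentiful, and the Ragulator and Rag proteins bring mTORC1 to the lysosome. All 13 tested genes of the mTOR list were below WT with a median of -0.15 (-0.08 after quantile normalization, 12 of 13 below), and in 6 of 13 all KO hearts lay below the WT hearts (46.2%, against 11.2% of all tested genes). That count was 2 of 13 after quantile normalization (29 of 696 tested genes), 2 as deposited and 3 when centred on reference genes. The mean of the list per heart was 0.54, 0.54, 0.55 and 0.53 in KO hearts, against 0.70, 0.63, 0.70 and 0.71 in WT hearts. The groups did not overlap on the centred scale, after quantile normalization or when centred on reference genes, and they overlapped on the values as deposited. Lamtor2, a Ragulator subunit, had values of 2.10, 2.22, 2.19 and 2.18 in KO hearts, against 2.42, 2.33, 2.39 and 2.48 in WT hearts. It differed by -0.23 (SE 0.0532, limma adjusted p = 0.116), and the inhibitory subunit Akt1s1 by -0.19 without overlap.

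AMPK is the kinase that answers to low cellular energy and opposes mTORC1. All 8 tested subunits and upstream kinase parts were below WT, with a median of -0.11 (-0.05 and 6 of 8 after quantile normalization). Prkag1, the regulatory gamma subunit that binds AMP, had values of 0.76, 0.89, 0.85 and 0.85 in KO hearts, against 1.17, 0.97, 1.20 and 1.13 in WT hearts. Its groups did not overlap (difference -0.27, SE 0.0638, limma adjusted p = 0.116). Prkaa2, the catalytic subunit typical of muscle, differed by -0.34 and Cab39, a partner of the upstream kinase Stk11, by -0.24, and only Cab39 had no overlap. The mean of the AMPK list was 1.27 to 1.33 in KO hearts and 1.39 to 1.51 in WT hearts, and, as for mTOR, did not overlap under 3 of 4 scalings.

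In the insulin pathway, 12 of 13 tested genes were below WT with a median of -0.08 (-0.01 after quantile normalization). All KO hearts lay below the WT hearts in 4 of 13 (30.8%, against 11.2% of all tested genes). That count was 2 of 13 after quantile normalization (29 of 696 tested genes), 0 as deposited and 3 when centred on reference genes. Among the 4 on the centred scale were Pik3cb and Pik3r3, a catalytic and a regulatory subunit of phosphoinositide 3-kinase. Pik3r3 had values of 0.37, 0.22, 0.35 and 0.44 in KO hearts, against 0.78, 0.60, 0.58 and 0.71 in WT hearts, and differed by -0.32 (SE 0.0694, limma adjusted p = 0.116). Pik3cb differed by -0.36, also without overlap.

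Pentose phosphate and nucleotide genes held a few separated members among lists that were close to the panel. Pgd, which makes NADPH in the oxidative branch, had values of 1.40, 1.27, 1.35 and 1.43 in KO hearts, against 1.66, 1.58, 1.56 and 1.66 in WT hearts. Its groups did not overlap (difference -0.26, SE 0.0561, limma adjusted p = 0.116). Taldo1 of the non-oxidative branch differed by -0.20 without overlap, and the median of the 10 genes was -0.07. Ampd3, which deaminates AMP, differed by -0.31 and also had no overlap, and the median of the 23 nucleotide salvage genes was -0.03. In glutamine metabolism the median of 13 genes was -0.04, and Glul, glutamine synthetase, had values of 1.98, 2.07, 1.94 and 1.92 in KO hearts, against 2.20, 2.12, 2.23 and 2.30 in WT hearts. It differed by -0.23 (adjusted p = 0.116). The aminotransferases Got1 and Got2, the enzymes of the malate-aspartate shuttle, differed by -0.31 and -0.30, with WT replicate 2 as the only WT heart within the KO range. Without that heart the differences were -0.42 and -0.40, and both were called lower. After quantile normalization without it they were -0.09 and -0.28, and neither was called.

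Cell cycle and DNA repair genes had medians of -0.06 (15 genes) and 0.00 (9 genes), and none was called. Timeless, which protects replication forks, had values of 0.39, 0.27, 0.32 and 0.47 in KO hearts, against 0.62, 0.58, 0.58 and 0.65 in WT hearts. Fancd2, of the repair of DNA crosslinks, lay on the other side, at -0.54, -0.50, -0.53 and -0.51 in KO hearts and -0.68, -0.68, -0.68 and -0.65 in WT hearts. Neither gene overlapped. The differences were -0.24 for Timeless (limma adjusted p = 0.116) and 0.15 for Fancd2 (adjusted p = 0.124). Brcc3, a deubiquitinase of the BRCA1-A complex, differed by -0.25 and Tfam, which packages mitochondrial DNA, by -0.26, both with all KO hearts below the WT hearts.

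Among genes of antigen presentation 11 of 17 lay below WT, and none was called. The list also held general proteasome subunits, so it does not describe antigen presentation alone. H2-D1, a classical class I molecule, had values of 0.48, 0.32, 0.26 and 0.30 in KO hearts, against 0.59, 0.98, 0.87 and 0.66 in WT hearts. The groups did not overlap (difference -0.44, SE 0.0976, limma adjusted p = 0.116), although class I genes are closely related and how far the probes tell them apart is a point not given in the sources used here. Psmb10, a subunit of the immunoproteasome that cuts peptides for class I, had values of -0.62, -0.61, -0.60 and -0.72 in KO hearts, against -0.36, -0.45, -0.26 and -0.32 in WT hearts. It differed by -0.29 (adjusted p = 0.112), and by the same amount after quantile normalization. H2-Q10, a non-classical class I gene, lay on the other side. It had values of -2.84, -3.90, -3.19 and -3.50 in KO hearts, against -4.25, -4.23, -4.16 and -3.70 in WT hearts. The groups overlapped through KO replicate 2 and WT replicate 4, and the difference was 0.73 (limma adjusted p = 0.129) on a mean count of 27.8. The median over 17 antigen presentation genes was -0.09 (0.01 after quantile normalization).

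Rarely counted immune genes lay on both sides of WT, and none was called. Fasl, a death ligand, had values of -2.93, -2.96, -2.69 and -2.73 in KO hearts, against -3.12, -3.48, -3.50 and -3.70 in WT hearts. Ptges, which makes prostaglandin E2, had values of -2.42, -2.57, -2.46 and -2.94 in KO hearts, against -3.30, -3.02, -3.19 and -3.31 in WT hearts. Both were separated between groups, with differences of 0.62 and 0.61 (limma adjusted p = 0.112 for each) on mean counts of 40.1 and 47.6. Cd244a, a receptor of natural killer cells, and Ms4a2, a subunit of the mast cell IgE receptor, differed by 0.40 and 0.41, also without overlap, and the T cell co-receptor chain Cd8b1 by 0.47 with overlap. Cd274, the checkpoint ligand PD-L1, had values of -3.20, -3.64, -3.59 and -3.55 in KO hearts, against -3.21, -2.67, -3.12 and -2.98 in WT hearts. Its groups overlapped through KO replicate 1 and WT replicate 1, with a difference of -0.50 (limma adjusted p = 0.124) on a mean count of 37.1. The leptin receptor Lepr differed by -0.43, and by -0.66 without KO replicate 1, where it was called lower. Of 24 tested T and natural killer cell genes 13 lay above WT and 11 below, and their median was 0.04, or -0.05 after quantile normalization, so that its sign changed with the scaling. After quantile normalization Ptges was still without overlap, and Fasl, Cd244a and Ms4a2 overlapped.

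Among 13 matrix and mesenchyme genes 8 lay below WT and 5 above, and none was called. Among adhesion genes Itga1, the alpha subunit of a collagen- and laminin-binding integrin, had the third lowest p of all genes. Its values were 2.11, 2.41, 2.29 and 2.46 in KO hearts, against 2.84, 2.76, 2.79 and 2.86 in WT hearts. The WT hearts lay close together and the groups did not overlap, with a difference of -0.49 (SE 0.0814, limma adjusted p = 0.07). It was called lower when the count minimum for testing was 50 (adjusted p = 0.0352) and without WT replicate 2 (adjusted p = 0.0162). The laminin chains Lama4, Lamc1 and Lamb1 differed by -0.18, -0.21 and -0.13, each without overlap. After quantile normalization they differed by -0.04, -0.02 and 0.03, all with overlap. The median over the 13 genes was -0.03 (0.11 after quantile normalization).

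Markers of other cell types were compared between the groups. The 7 measured markers of fibroblasts and mesenchyme had a median of 0.18, and no member was called. Over single omissions this median was -0.05 (without WT replicate 4) to 0.41 (without WT replicate 2), and it was -0.03 without KO replicate 1. Their summed level, in multiples of the median probe, was 20.6 to 31.0 in KO hearts and 17.0 to 32.9 in WT hearts. By heart their mean was 1.01, 0.36, 0.58 and 0.16 in KO hearts, against 0.22, 1.04, 0.40 and -0.16 in WT hearts. KO replicate 1 and WT replicate 2, the hearts that stand apart and have the lowest complex I means of their groups, were thus the highest in these markers. Their part in the results was not tested. Among leukocyte markers 13 of 20 measured were tested, with a median of 0.02, and the same 2 hearts had the highest means of the tested ones. The summed level of all 20 was 2.44 to 4.90 in KO hearts and 2.26 to 4.88 in WT hearts. Of the endothelial markers Flt1 and Nos3 were measured and differed by 0.08 and 0.13. No smooth muscle marker was on the panel, and Tfrc was the only erythroid one (-0.35). Of 8 measured liver markers 6 were tested, with a median of 0.14. The summed level of all 8 was 0.511 to 0.651 in KO hearts and 0.471 to 0.518 in WT hearts. No marker was at 0, since the lowest probe count in any of the 8 hearts was 5.

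In 49 lists with at least 3 tested members, Slc25a1 left out, the mean per heart was compared between groups, and it separated KO from WT in 9. In 7 of these all KO hearts were below: citrate use, autophagy, insulin signalling, mTOR, AMPK, chromatin enzymes and the commonly used reference genes. In 2 lists, hypoxia with vessel genes and arginine with polyamine genes, all KO hearts were above. Among single tested genes, the groups did not overlap in 95 of 696 (13.6%). Some lists share members, so they are not independent. The reference genes thus differed between groups on the centred scale, with list means of 1.35 to 1.37 in KO hearts and 1.39 to 1.48 in WT hearts. After quantile normalization the KO hearts were all below in 3 lists (mTOR, AMPK and apoptosis) and all above in 3 (hypoxia, ATF4 targets and NRF2 targets). Of 696 tested genes that scaling put 29 all below and 25 all above. Centred on reference genes, 2 lists were below (mTOR and AMPK) and 5 above (hypoxia, arginine, ATF4 targets, nucleotide salvage and liver markers). Of the tested genes, 29 were then all below and 43 all above. The values as deposited separated 2 lists, both below, and put 18 genes all below and 5 all above. The 7 hypoxia and vessel genes had list means of 0.65 to 0.76 in KO hearts and 0.57 to 0.64 in WT hearts. No member was called, and Car9, a strong target of hypoxia-inducible factors, differed by 0.47, with KO replicate 1 (-1.11) far above the other KO hearts (-2.71 to -2.50) and the WT hearts (-3.05 to -2.27), and by 0.10 without KO replicate 1.

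The number of genes called turned on WT replicate 2. Without that heart limma called 157 genes, 21 higher (3.02%) and 136 lower (19.5%), and weighting hearts by their agreement with the model, which gave WT replicate 2 the lowest weight of 0.302, called 28 higher (4.02%) and 149 lower (21.4%). Without WT replicate 2 and KO replicate 1 together 14 were called higher (2.01%) and 112 lower (16.1%), and of these 113 were shared with the fit that left out WT replicate 2 alone. With quantile normalization and without WT replicate 2 the count was 6 higher (0.862%) and 5 lower (0.718%), and 9 of these were shared. WT replicate 2 was singled out because it stood apart in these same data, so its omission is a description of how far 1 heart carries the result and not a separate test.

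**Figure D5:**
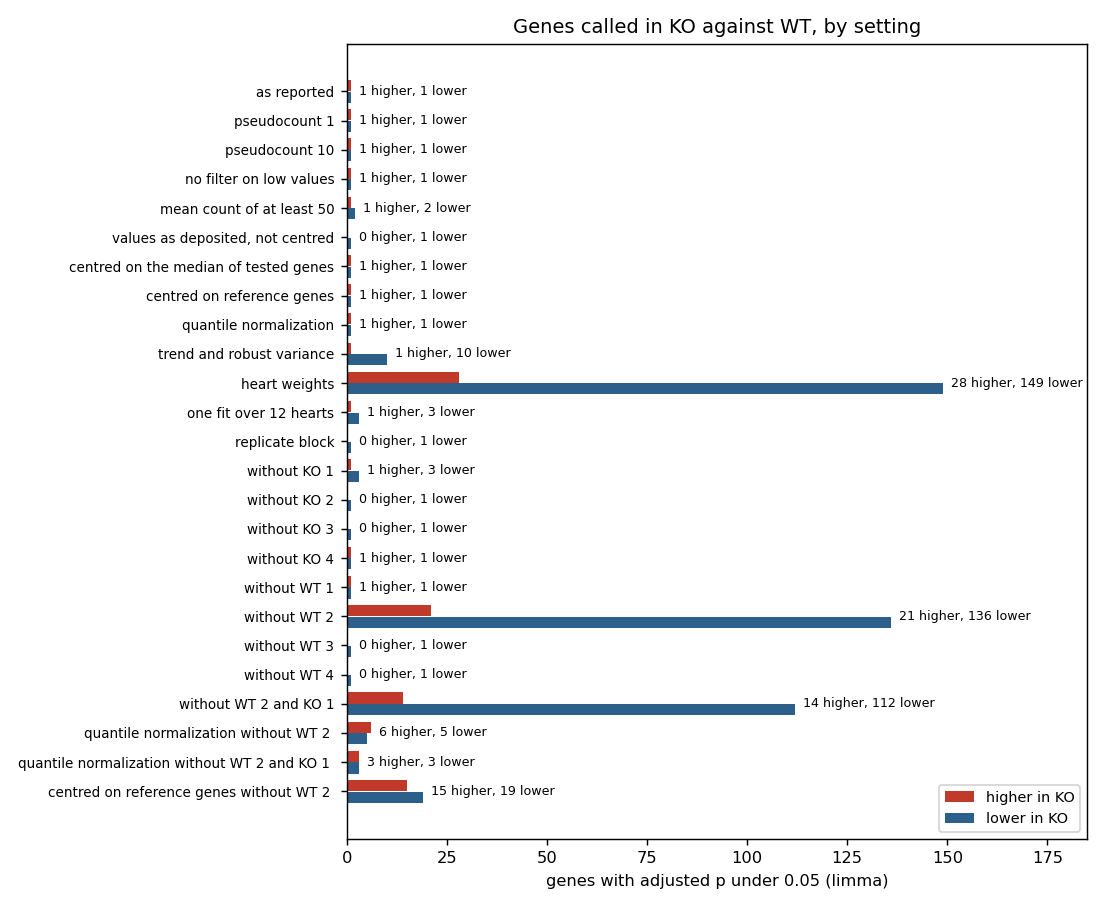
Number of genes with a limma adjusted p under 0.05 (horizontal axis), higher in KO (red) and lower in KO (blue), under the settings named on the vertical axis; the top row is the comparison as reported, with 1 higher and 1 lower. Counts pass 100 in 3 settings, those that leave out or down-weight WT replicate 2 on the median-centred scale.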

How the data were processed

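Total RNA of embryonic hearts was measured on a NanoString nCounter panel, per the labels. The values deposited by the authors are ratios: each is a probe count divided by the count of the Tbp probe in the same heart, so that Tbp is 1 in every heart, as the values themselves show. The smallest whole number that turned all 768 ratios of a heart into whole numbers (tolerance 0.01) was read as its Tbp count, 310 to 398 in KO hearts and 276 to 355 in WT hearts, and gave the probe counts. Panel name, background subtraction and software are details not given in the sources used here. The step is not reversible for any background removed earlier, and dividing by 1 probe carries that probe's error into every value of a heart, which centring removes.

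Log2 ratios were centred on the median of the heart's 768 probes. The 696 genes with mean counts of 20 or more (72 had fewer) were tested with limma 3.58.1 (lmFit, eBayes, two-sided, genotype only) in R 4.3.3, and a Benjamini-Hochberg adjusted p under 0.05 was a call. Symbols are those of the file, 767 of 768 matched in the RefSeq table. Python 3.11.15 and matplotlib 3.10.9 drew the figures. Counting error is smallest for abundant genes, and the number of hearts limits the precision.

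Named genes are Slc25a1, the called genes, the 12 with the lowest p in each direction and up to 3 with the lowest p, or 2 with the highest level, in each list. Eno3, Asns, Slc2a1, Slc27a1, Pdk4, Adh1 and Trf were added later. The members and the gene lists were chosen with earlier results of these data known. Once the symbols were seen, Cd36 and Cd38 were taken from the T cell list, Pdk1 from the insulin list, H2-Ke6 from antigen presentation and Mapkap1 from the MAPK list, because these had been caught by name patterns or share a name with another protein. Alternatives changed the pseudocount, filter, scaling, variance model, block and hearts. The 3 that join another scaling to the omission of hearts were added after seeing the data.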

Additional observations from a re-analysis of the deposited data

Results flagged for a closer look

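Each group of 4 hearts was examined for a single heart far from the other 3, by Dixon's ratio at its 95% critical value, for the followed genes and for the list means. In 332 groups 22 exceeded it, and chance gives about 1 in 20. WT replicate 2 was the lowest WT heart for Ndufb8 of complex I (5.19), Uqcr11 of complex III (5.50), Tigar (0.088), Nme2, a nucleoside diphosphate kinase (4.59), and Sod2, the mitochondrial superoxide dismutase (3.35). It was also the lowest WT heart in the means of the glycolysis list (1.59), the fatty acid and sterol synthesis list (-0.28) and the mTOR list (0.63), and the highest WT heart for Adh1 (-1.02). KO replicate 1 was the lowest KO heart for Uqcr11 (5.36), the adenylate kinase Ak1 (4.02), the centromere histone Cenpa (2.70), the growth factor Pdgfb (0.55) and the mean of the AMPK list (1.27). The same heart was the highest KO heart for Car9 (-1.11) and for the mean of the growth factor list (-0.66).

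The other hearts that stood apart did so in 1 item or in a few without a common theme. For Phgdh, KO replicate 2 (0.17) lay above the other 3 KO hearts, which were nearly equal, and so raised the KO mean. Psmb10 was lowest in KO replicate 4 (-0.72), as was the mean of the fatty acid uptake and PPAR list (1.00). Cd8b1, a T cell co-receptor chain, was lowest in KO replicate 2 (-3.15). Fancd2 was highest in WT replicate 4 (-0.65) and Otc, a urea cycle enzyme, in WT replicate 1 (-4.08).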

How the results depend on the processing

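Slc25a1 was called lower under all 24 alternatives, with differences of -2.71 to -2.28. Of 119 followed genes, 108 kept their direction under all of them. The number of genes called, 2 as reported, was 1 as deposited, 11 with a trended robust variance, 177 with heart weights and 4 with 1 fit over 12 hearts. Leaving out single hearts gave 1 (without KO replicate 2 or 3 or WT replicate 3 or 4) to 157 (without WT replicate 2), with 4 without KO replicate 1. The count was 126 without WT replicate 2 and KO replicate 1. Quantile normalization gave 11 without WT replicate 2 and 6 without both hearts, and centring on reference genes gave 34 without WT replicate 2. The number of genes without overlap between groups, 95 as reported, was 23 as deposited, 62 when centred on the median of tested genes and 54 after quantile normalization. It was 107 to 248 over single omissions, 281 without both hearts, 143 and 187 after quantile normalization without WT replicate 2 or without both, and 210 when centred on reference genes without WT replicate 2. Fewer hearts leave fewer values that can overlap. Deviations from the group mean had correlations of -0.24, -0.28, 0.06 and 0.35 between hearts of the same number. These few values cannot show whether the numbers pair the samples, and the labels give no pairing. The fit with the replicate block called 1 gene, Slc25a1, and lost the call of Phgdh (0.52).

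Signs that turned did so for small differences, and the cause was not tested. Acaca was -0.031 as deposited. Psat1 was 0.021 when centred on tested genes, 0.036 on reference genes and 0.083 after quantile normalization. Shmt1 under the same 3 scalings was 0.021, 0.036 and 0.026. Over single omissions Psat1 ranged over -0.097 to 0.0030, Shmt1 over -0.14 to 0.026 and Asns over -0.0089 to 0.19. Quantile normalization gave 0.016 for Atf4 and 0.027 for Lamb1. With it and without WT replicate 2, values were 0.0077 for Acaa2, 0.038 for Psat1, 0.033 for Atf4, 0.0080 for Nme2, 0.023 for Lama4, 0.051 for Lamc1 and 0.10 for Lamb1. Without both hearts they were 0.0010 for Acaa2, 0.070 for Psat1, 0.012 for Atf4, 0.022 for Lama4, 0.067 for Lamc1, 0.091 for Lamb1 and 0.0013 for Uqcr11. No liver marker was left at a mean count of 50, so that alternative gave no value for them.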

Other observations

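In a list of tryptophan genes 12 of 15 tested genes lay above WT, with a median of 0.11 (0.08 after quantile normalization), and none was called. The list also held cytochrome P450 genes and genes of serotonin and melatonin synthesis, so it does not describe the kynurenine route alone. Its median probe count was 46.8, in the range where 124 of 186 genes lay above WT. Tryptophan breakdown is the route to kynurenine and NAD. Tdo2, the dioxygenase of the first step, had values of -2.81, -3.34, -2.84 and -3.05 in KO hearts, against -3.30, -3.57, -3.82 and -3.82 in WT hearts. The groups overlapped through KO replicate 2 and WT replicate 1, and the difference was 0.62 on a mean count of 35.6. Tdo2 is also counted among the liver markers, whose median was 0.14, and the source of its transcript was not tested. Afmid, the formamidase of the next step, lay on the other side, at -0.44, -0.46, -0.47 and -0.54 in KO hearts and -0.20, -0.35, -0.21 and -0.08 in WT hearts. Its groups did not overlap, with a difference of -0.26 (limma adjusted p = 0.116).

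Antioxidant genes gave values on both sides. Over 17 genes the median was -0.06 (0.06 after quantile normalization). The mitochondrial Txn2 and Sod2 differed by -0.25 and -0.33 (Sod2 by -0.42 without WT replicate 2, where it was called lower), while Hmox1, which breaks down heme, differed by 0.42, all with overlapping groups and none called with all 8 hearts.

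The largest difference beyond Slc25a1, picked after the values were seen, was that of Adh1, an alcohol and retinol dehydrogenase. Its values were -0.21, -1.41, -1.78 and -2.14 in KO hearts, against -2.83, -1.02, -2.55 and -2.62 in WT hearts. KO replicate 1 and WT replicate 2 were the highest of their groups, as for the mesenchyme markers, and the difference of 0.87 had an SE of 0.512 (limma adjusted p = 0.309). It was 0.48 without KO replicate 1, 1.28 without WT replicate 2 and 0.89 without both, and only the last was called (adjusted p = 0.0307). Trf, transferrin, had the same 2 hearts on top and differed by 0.67, or 0.35 without KO replicate 1 and 1.01 without WT replicate 2. The part of these 2 hearts in either difference was not tested.

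The 72 genes below the count minimum, which were not tested, had a median difference of 0.03, with 41 above WT and 31 below. In 1 of them all KO hearts lay above the WT hearts and in 2 all lay below.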
